A study of Mus musculus with 8 samples.

Results

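The regions described here are stretches of chromatin acetylated at lysine 27 of histone H3 (H3K27ac) that lay deep inside protein-coding genes of mouse mpkCCD cells. Overlapping or touching peaks of 4 peak lists were merged on the 19 autosomes and the X chromosome. A merged region was kept if it was under 20 kb wide, held a peak of all 4 lists, lay wholly inside a RefSeq protein-coding gene and was over 10 kb from both ends of every protein-coding gene. This gave 2544 deep intragenic regions, 15.4% of the 16535 regions with a peak in all 4 lists and 18.7% of the 13594 regions that met the width and position limits with a peak in any list. They lay in 1444 host genes, and 14 of them lay inside more than 1 gene. A further 72 regions were left out by the width limit alone. Without dDAVP replicate 2, whose list was the shortest, 4458 regions met the rule in the other 3 lists.

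Chromatin immunoprecipitation and sequencing (ChIP-seq) had been carried out on mpkCCD clone 11, 1 clonal line of the mouse cortical collecting duct, at passages 6 to 10. Cells of every group had been grown with dexamethasone, insulin, triiodothyronine and epidermal growth factor, and then held on permeable supports without serum or hormones for 24 h. They then received 0.1 nM dDAVP, an agonist selective for the V2 vasopressin receptor, or its vehicle, for 24 h. Each treatment had 1 immunoprecipitated and 1 input library in each of 2 experiments. Beyond the experiment number, nothing in the labels tells whether the cultures were independent. No genotype was altered in any group, as far as the labels say.

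H3K27ac is laid down by the acetyltransferases CBP and p300 and marks active promoters and active enhancers. Inside a gene, such a region can be an enhancer of the host or of a neighbour, or a promoter from which a shorter transcript of the host starts. In the principal cell of the collecting duct, vasopressin acts through the V2 receptor, the G protein Gs and adenylyl cyclase to raise cAMP. Protein kinase A then drives aquaporin-2 to the apical membrane and phosphorylates CREB, which binds cAMP response elements. Phosphodiesterases end the signal by hydrolysing cAMP. The series set out to find acetylation that changes with vasopressin, and the gene interiors were examined here for such changes.

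The number of peaks in a list did not follow the number of tags. The immunoprecipitated libraries kept between 27923780 and 32705755 tags and the inputs between 30753752 and 38291361, and the lists held between 20122 (dDAVP replicate 2) and 39741 peaks (vehicle replicate 1) on the chromosomes used. The library with the fewest tags, dDAVP replicate 1, had 37232 peaks. In experiment 1 the dDAVP peaks spanned 99.0 Mb and the vehicle peaks 104.0 Mb, and in experiment 2 they spanned 33.5 Mb and 56.9 Mb. As a check of the cell type, 12 of 21 genes of principal cell transport had a gene end under peaks of all 4 lists. The same was true of 0 of 13 fibroblast and smooth muscle, 0 of 10 endothelial, 1 of 11 leukocyte, 1 of 17 neuronal, 1 of 10 proximal tubule, 1 of 10 thick limb and distal convoluted tubule, 1 of 7 podocyte and 2 of 12 intercalated cell markers. Among genes of known strand with sequence over 10 kb from every gene end, the 5′ end alone lay under such peaks in 51.8%. The transport count, which takes either end, was near that share and does not mark the cell type by itself. The counts of the other markers were below it.

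Some deep intragenic regions held an annotated transcription start. RefSeq start windows (GRCm38.p6, the patch release of mm10) were at hand for the hosts of 2005 regions, and 261 of these (13.0%, in 251 hosts) held a transcription start of the host itself. The 250 bases before 6 of these starts are printed 5′ to 3′ because the comparisons below turn on their regions. The windows are Pde4b at chr4:102569810-102570059 on the plus strand, Hdac4 at chr1:92180342-92180591 on the minus strand, and Sash1 at chr10:8886071-8886320 on the minus strand. The others are Creb5 at chr6:53573124-53573373 on the plus strand, Wnt9b at chr11:103749822-103750071 on the minus strand and Dab2 at chr15:6386498-6386747 on the plus strand. Each of 4 motifs was searched on both strands and capitals mark the matches: TGACG, the CREB half-site, and TGANTCA, the AP-1 motif, as well as AGATAA, read by GATA factors, and TGTTCT, a half-site of the glucocorticoid receptor.
Pde4b: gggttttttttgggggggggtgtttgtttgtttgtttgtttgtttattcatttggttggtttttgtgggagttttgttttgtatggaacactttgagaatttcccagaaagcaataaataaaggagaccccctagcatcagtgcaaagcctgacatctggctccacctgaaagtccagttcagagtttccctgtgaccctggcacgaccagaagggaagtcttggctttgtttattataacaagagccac
Hdac4: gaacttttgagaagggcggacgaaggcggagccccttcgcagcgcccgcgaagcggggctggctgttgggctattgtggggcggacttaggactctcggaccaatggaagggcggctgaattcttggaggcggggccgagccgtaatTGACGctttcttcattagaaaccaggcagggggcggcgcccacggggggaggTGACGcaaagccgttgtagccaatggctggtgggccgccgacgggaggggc
Sash1: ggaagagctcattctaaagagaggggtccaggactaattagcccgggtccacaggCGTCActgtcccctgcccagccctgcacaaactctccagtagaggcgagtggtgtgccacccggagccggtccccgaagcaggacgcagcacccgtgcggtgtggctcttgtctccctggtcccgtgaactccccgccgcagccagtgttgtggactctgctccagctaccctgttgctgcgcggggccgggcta
Creb5: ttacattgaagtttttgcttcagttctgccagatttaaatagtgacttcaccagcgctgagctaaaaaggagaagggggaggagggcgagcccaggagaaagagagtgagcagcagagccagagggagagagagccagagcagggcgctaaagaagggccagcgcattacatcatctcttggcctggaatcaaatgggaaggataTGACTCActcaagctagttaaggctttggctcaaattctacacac
Wnt9b: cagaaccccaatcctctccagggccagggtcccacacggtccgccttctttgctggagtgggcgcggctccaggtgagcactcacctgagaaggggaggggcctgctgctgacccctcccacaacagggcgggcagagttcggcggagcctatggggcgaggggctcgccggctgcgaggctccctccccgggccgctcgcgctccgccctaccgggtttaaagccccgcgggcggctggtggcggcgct
Dab2: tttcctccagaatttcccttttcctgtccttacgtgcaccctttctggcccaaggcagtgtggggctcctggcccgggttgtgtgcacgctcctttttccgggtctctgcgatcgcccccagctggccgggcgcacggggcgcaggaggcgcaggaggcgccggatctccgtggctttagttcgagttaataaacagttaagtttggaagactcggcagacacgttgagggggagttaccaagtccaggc
The Hdac4 window held 2 CREB half-sites, the Sash1 window 1 and the Creb5 window 1 AP-1 motif. The Pde4b, Wnt9b and Dab2 windows held no match to any of the 4 motifs. GC content was lowest in Pde4b (43.2%, 1 CpG) and highest in Wnt9b (72.0%, 22 CpG), and Hdac4 lay between (65.2%, 23 CpG).

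Starts inside the deep intragenic regions had a higher median GC content than starts under no peak. The table held 1490 RefSeq starts, in 1082 genes, that lay over 10 kb from the ends of every protein-coding gene. Of these, 963 (64.6%) lay under no peak in any list and 315 (21.1%) under a peak in all 4, and 298 lay in the deep intragenic regions. The medians and shares below were taken over whole windows of 300 bases, and not only the 250 bases printed above. Windows of those 298 had a median GC content of 59.0% and 17 CpG, against 50.0% and 5 CpG for starts under no peak. Over all 32619 windows the medians were 53.0% and 7 CpG. A CREB half-site was found in 24.5% of the 298 windows, in 14.5% of windows under no peak and in 20.9% of all windows. The AP-1 motif was found in 8.39%, 9.24% and 7.85%, and the GATA motif in 7.72%, 10.8% and 11.2%, in the same order. The half-site of the glucocorticoid receptor was found in 13.4% of the 298 windows and in 21.8% of windows under no peak. The CREB half-site holds a CpG, so its share moves with the CpG count. A match is only a run of letters, and whether CREB was bound was not tested.

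A few regions also held microRNA genes. Of 1005 hairpins in the RefSeq table on these chromosomes, 9 lay in deep intragenic regions, each in a different one, with 16 mature sequences and 16 different seeds. The hosts were Zmiz1 (Mir3075), Samd4 (Mir378c), Acvr1b (Mir6962), C2cd2 (Mir6964), Fndc3b (Mir3092), Prkci (Mir7008), Trpm1 (Mir6416), Gse1 (Mir7687) and Tln2 (Mir190a). Mature sequences of 3 of them are shown, with the seed (bases 2 to 8) in capitals. They are shown because Tln2 encodes talin 2, which links integrins to actin, because the Samd4 region had the lowest ratio of covered bases in experiment 1 among the 9, and because Prkci encodes the atypical protein kinase C of the epithelial polarity complex.
mmu-miR-190a-5p: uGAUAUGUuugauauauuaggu
mmu-miR-190a-3p: aCUAUAUAucaagcauauuccu
mmu-miR-378c: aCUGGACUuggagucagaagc
mmu-miR-7008-5p: uGUGGGAGaugccaggagccguac
The Mir378c region in Samd4 was covered by 0.554 and 0.578 times as many bases with dDAVP as with vehicle in the 2 experiments. For the Mir190a region in Tln2 the ratios were 0.746 and 0.915, and for the Mir7008 region in Prkci 0.932 and 0.491. Fewer bases with dDAVP in both experiments were also found in 55.6% of all deep intragenic regions and 51.2% of all regions in all 4 lists, so the direction was not particular to these.

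Deep intragenic regions were weaker than gene ends in every list, and near distal intergenic regions in strength. Strength is the authors' fold enrichment over input, taken as the highest value of any peak in the region. In experiment 1 its median was 3.80 with dDAVP and 4.22 with vehicle, and in experiment 2 it was 3.42 and 3.85. For the 8698 regions within 1 kb of a gene end the medians were 6.18, 6.58, 4.89 and 6.04, higher in each of the 4 lists. The difference was -2.1 ± 0.427 (SD, n = 4 lists, exact sign-flip permutation test, two-sided, with the smallest p that 4 lists allow). That smallest p is above the usual limits of significance, so no values in 4 lists could have passed. The 4 lists also come from only 2 experiments. For the 2675 intergenic regions over 10 kb from every gene end the medians were 3.73, 4.12, 3.43 and 3.87. This difference, 0.0359 ± 0.06 (SD, n = 4, exact sign-flip permutation test, p = 0.5), was smaller than its spread and changed sign between the experiments.

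Their merged extent was larger. The merged regions had a median width of 4383.5 bp, against 3428 bp for distal intergenic regions and 3160.5 bp at gene ends. Bases under peaks had medians of 3652 and 3844 in dDAVP and vehicle of experiment 1, and 1344 and 2336 in experiment 2. The distal intergenic medians were 2656, 2930, 1301 and 2216, so that the intragenic regions were covered further in each of the 4 lists. The difference was 518 ± 507 bases (SD, n = 4, exact sign-flip permutation test, not significant, again with the smallest p that 4 lists allow). Against gene ends the difference was 591 ± 485 bases (SD, n = 4, exact sign-flip permutation test, p = 0.25), and it was -62.5 bases in dDAVP replicate 2. Regions share libraries, so the 4 lists are 4 readings and not 4 independent cultures per class.

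**Figure D1:**
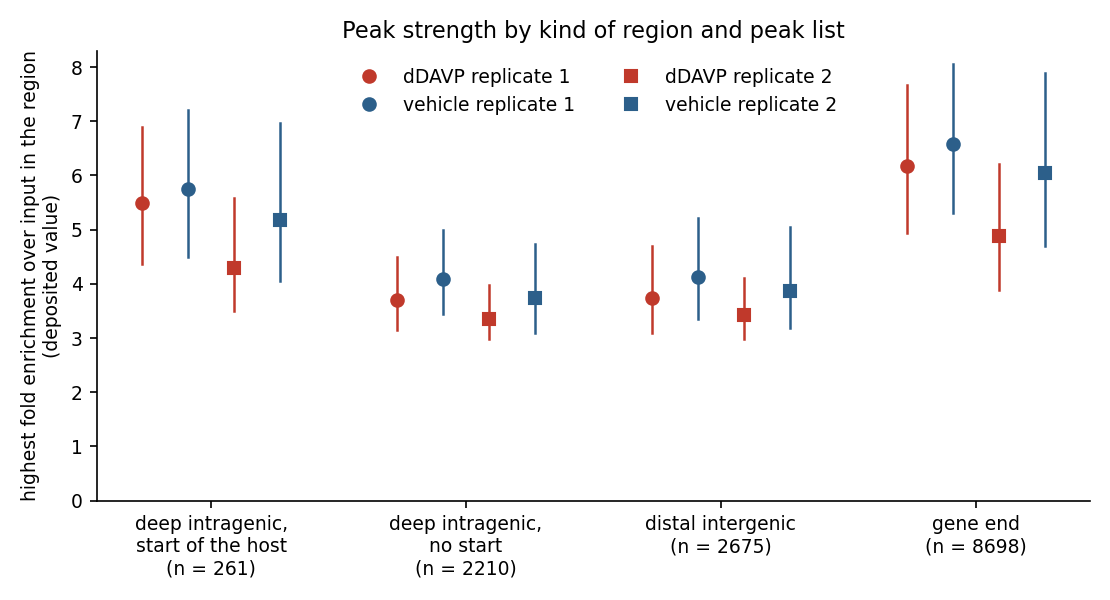
Highest deposited fold enrichment over input per region (vertical axis, linear) for 4 kinds of region, in each peak list; points are medians and bars run from the lower to the upper quartile over regions. Deep intragenic regions with a start of the host have medians of 4.30 to 5.75, between the gene ends and the regions with no start.

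Regions that held a start of the host were stronger than those that held none. Median fold was 5.50, 5.75, 4.30 and 5.17 over 261 regions with an own start, in the order dDAVP 1, vehicle 1, dDAVP 2 and vehicle 2. It was 3.71, 4.09, 3.35 and 3.73 over the 2210 with no start in the table. The difference was 1.46 ± 0.367 (SD, n = 4 lists, exact sign-flip permutation test, not significant, with the smallest p that 4 lists allow), and fold was higher in all 4. With only the 1688 regions of no start whose hosts are in the table, a choice made after seeing the data, it was 1.47 ± 0.366. A further 73 regions held only a start of a long non-coding RNA, with medians of 4.58, 4.92, 3.83 and 4.46 and the largest median width of the 3 kinds, 6469 bp. Own starts were covered by fewer bases than regions with no start in 3 of the 4 lists (-246 ± 272, SD, n = 4, exact sign-flip permutation test, p = 0.25).

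The 10 strongest deep intragenic regions, of which 6 held an own start, lay in Tex14, Sash1, Fancc, Zfp638, Taf3, Skap1, Srpk2, Agpat4, Tank and Ppp2r5c. They were ranked by their lowest percentile of fold in the 4 lists among the 16186 regions in all 4 lists under 20 kb. That percentile was 97.7 for Tex14 and 92.9 for Ppp2r5c. The Tex14 region (chr11:87470525-87471561) was only 1037 bp wide, and its fold was 10.7, 12.5, 18.7 and 16.3 in the usual order of lists. Its host encodes a protein of germ cell intercellular bridges. The Sash1 region (chr10:8883702-8888664) covered the start printed above, with fold 10.8, 13.6, 9.49 and 11.9. Sash1 encodes a scaffold protein of SH3 and SAM domains, and no peak of any list lay within 1 kb of the 5′ end of its gene span, which is what a peak on a gene end means throughout. Fancc (9.82, 10.5, 8.55 and 12.9), of the Fanconi anaemia DNA repair pathway, and Zfp638 (9.69, 10.5, 8.16 and 11.4), a zinc finger gene, also held own starts. Taf3, a TFIID subunit that reads the promoter mark H3K4me3, held none in its region (11.2, 12.9, 9.20 and 10.5). No treatment call was made in any of these 10. Few others were as strong, with 39, 38, 57 and 61 of the 2544 at or above the 90th percentile of fold.

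Many hosts with an own start inside had no peak at their outer 5′ end. Of the 251 hosts with an own start in a deep intragenic region, 117 (46.6%) had no peak of any list on the 5′ end of the gene span and 107 (42.6%) had peaks of all 4. Of 887 other hosts with a known strand, 194 (21.9%) had none there and 592 (66.7%) had all 4. Of all 7796 genes of known strand with sequence over 10 kb from every gene end, 39.1% had none and 51.8% had all 4. The 46.6% was thus nearer to the share of all such genes than to that of the other hosts. Hdac4, Pde4b, Dab2 and Wnt9b were among the hosts whose outer 5′ end lay under no peak. The gene span takes the outermost start of any transcript.

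Host genes were long, and the 5′ ends of most lay under peaks. A gene was eligible if it held sequence over 10 kb from every gene end, and 1444 of 9823 eligible genes (14.7%) were hosts. Hosts had a median length of 108 kb, against 43.8 kb for eligible genes with no member. Their 5′ end lay under peaks of all 4 lists in 699 of 1138 hosts with a known strand (61.4%), against 50.2% of the other eligible genes. Per megabase of eligible interior there were 5.93 regions in genes whose 5′ end was in all 4 lists, 4.20 where it was in 1 to 3 lists and 1.73 where it was in none. Density by chromosome ran from 0.78 per megabase on the X to 6.20 on chromosome 19. Along the genes, 1115 of 2005 regions with a known direction (55.6%) lay nearer to the 5′ end, in the part of the gene before its midpoint, which holds 50.0% of the interior bases of the hosts. For regions with an own start the share was 62.5%, and for those in 1 to 3 lists only, which are not members, it was 53.4%.

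Most hosts held 1 region (888 genes) or 2 to 4 (484), and 72 hosts held 5 or more, 439 regions between them. Stard13, a GTPase-activating protein, held 13 regions over its 391 kb, with no peak on its 5′ end in any list, and its fold ranged from 2.57 to 9.04 in dDAVP replicate 1. Sgms1 (sphingomyelin synthase) and Maml3 (a Notch coactivator) held 10 each, Spata13 (a Rac and Cdc42 exchange factor) and Lpp (a LIM protein of cell adhesions) 9 each, and Maml2 and Oxr1 8 each. Arid5b and Crybg1 held 7 each. Per 100 kb of interior the densest of these 9 hosts was Arid5b, at 4.20, and the sparsest Lpp, at 1.55.

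The host genes included many genes of the epithelial cytoskeleton. Of eligible genes, 17 of 28 myosins and actin-binding genes and 12 of 25 integrin and basement membrane genes were hosts, against 14.7% of all eligible genes. The other pathway lists gave 16 of 38 for cAMP, protein kinase A and phosphodiesterases, 13 of 33 for nuclear receptors and chromatin, 12 of 27 for TGF-beta, Hippo and Wnt signalling and 11 of 28 for junctions and polarity. They also gave 10 of 30 for vesicle traffic, 9 of 23 for collecting duct transcription factors, 8 of 21 for receptor tyrosine kinases and 6 of 17 for principal cell transport. The share depends on gene length, so the density is given too. It was 11.2 regions per megabase for TGF-beta, Hippo and Wnt genes, 9.97 for myosins and actin-binding genes and 9.29 for principal cell transport. Integrins and basement membrane gave 8.23 and nuclear receptors and chromatin 6.4. Junctions and polarity gave 5.41, receptor tyrosine kinases 5.38, transcription factors 4.88, vesicle traffic 3.98 and the cAMP list 3.75. All eligible genes gave 3.43, and those whose 5′ end lay under peaks of all 4 lists 5.93. The lists were chosen with earlier results of these data known, so their shares and densities are descriptions. Among markers of other cells, fibroblast and smooth muscle genes gave 0 of 12 hosts, proximal tubule and intercalated cell genes 1 of 7 each, leukocyte genes 2 of 11 and endothelial genes 2 of 9. Neuronal genes gave 1 of 17, or 0.0496 regions per megabase of their long interiors. Thick limb and distal convoluted tubule genes gave 3 of 7 and podocyte genes 3 of 6, with 13.8 and 6.03 regions per megabase, the first of these above every pathway list.

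**Figure D2:**
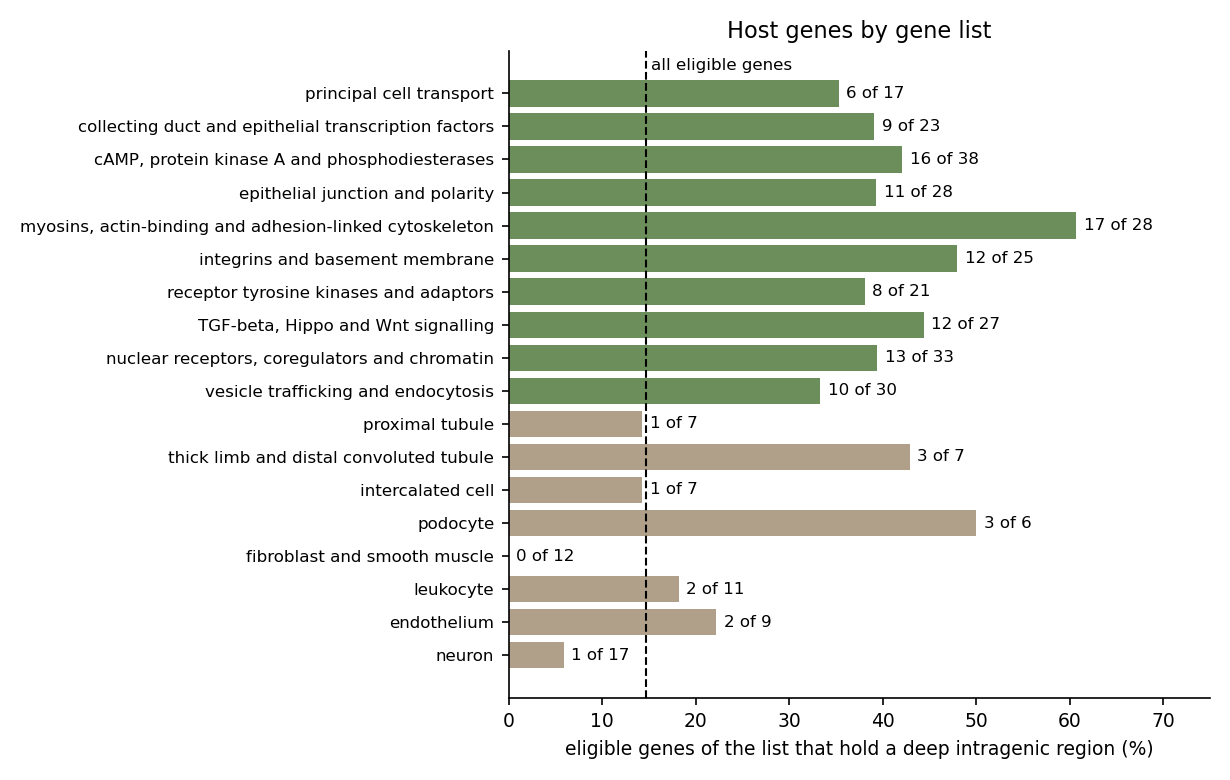
Share of eligible genes of each list that hold a deep intragenic region (horizontal axis, percent, from 0), with counts beside the bars; green bars are pathway lists and brown bars are markers of other cell types. The dashed line is the share over all 9823 eligible genes, 14.7%. The 10 pathway lists shown lie above it, and so do the podocyte, thick limb and distal convoluted tubule, endothelium and leukocyte lists. The lists were chosen with earlier results of these data known.

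With dDAVP, deep intragenic regions were covered by fewer bases, mostly in experiment 2. The ratio of library medians, dDAVP over vehicle, was 0.950 in experiment 1 and 0.575 in experiment 2. On the log2 scale this was -0.07 and -0.80 (mean -0.44 ± 0.51, SD, n = 2 pairs, exact sign-flip permutation test, p = 0.5, the smallest possible). Over all 16186 regions in all 4 lists under 20 kb, the same values were -0.05 and -0.51, so the fall was not limited to gene interiors, and the shorter dDAVP lists moved with it. The intragenic regions differed from all regions by less in experiment 1 than in experiment 2, and the mean difference was -0.15. Fewer bases in both experiments were found in 1414 of the 2544 (55.6%), against 51.2% of all regions. More bases in both were found in 147 (5.78%), against 4.84%. Whether list length accounts for the fall was not tested.

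To set single regions against this general shift, each log2 ratio was centred on the median of all regions in its experiment. A region was called wider or narrower with dDAVP where the centred ratio was at least 1.5-fold the same way in both experiments. By this rule 37 deep intragenic regions (1.45%) were wider, against 0.723% of all regions, and 123 (4.83%) were narrower, against 3.18%. Distal intergenic regions gave 1.38% and 7.55%, and gene ends 0.230% and 1.03%. A single region cannot be tested, since 2 pairs allow no exact p below 0.5, and the calls are descriptions. They rest on both experiments: with the experiments taken alone, after leaving out a list of the other, between 175 and 431 regions were wider and between 291 and 872 narrower, of 2621 to 4458 that met the rule in the 3 lists left. Without centring, 15 were wider and 209 narrower. When experiments were not paired, with both dDAVP lists beyond both vehicle lists after centring, 61 (2.4%) were wider and 267 (10.5%) narrower. These 2 shares are of the deep intragenic regions, and those over all regions are not given here. Regions named below for large shifts were picked by the same kind of values, which favours groups that do not overlap.

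**Figure D3:**
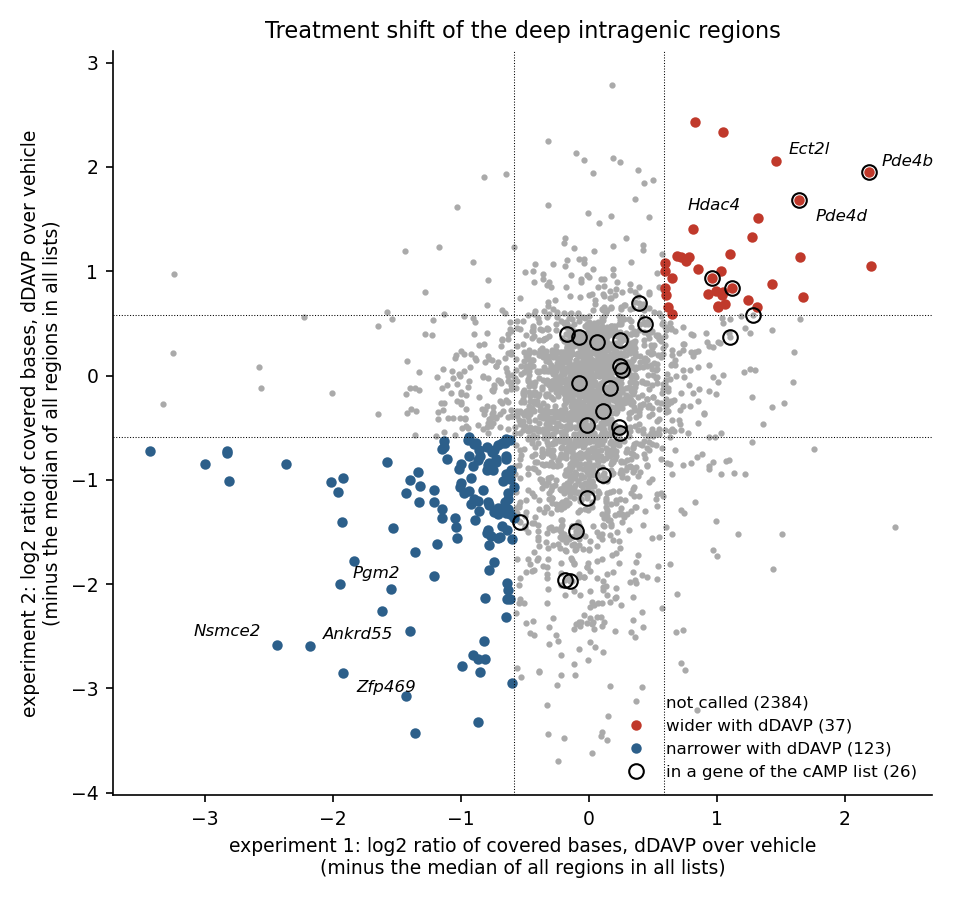
Centred log2 ratio of covered bases, dDAVP over vehicle, in experiment 1 (horizontal) and experiment 2 (vertical) for 2544 deep intragenic regions. Red points are the 37 called wider and blue points the 123 called narrower, dotted lines mark 1.5-fold, open circles are the 26 regions in genes of the cAMP list, and the Pde4b and Pde4d regions lie at the upper right.

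Both regions at the head of the wider calls lay in genes of cAMP breakdown. Ranked by the smaller of the 2 centred ratios, the first deep intragenic region lay in Pde4b and the second in Pde4d, which encode cAMP-specific phosphodiesterases. Among all 16186 regions these ranked 2 and 3. The Pde4b region (chr4:102509711-102513786, 424 kb from the 5′ end of the gene) was covered by 4076 bases in dDAVP replicate 1 and 2136 in dDAVP replicate 2. In vehicle it was covered by 913 and 762 bases, so that both dDAVP lists exceeded both vehicle lists. Its fold was 5.40 and 6.19 with dDAVP and 3.47 and 3.64 with vehicle. The centred log2 ratios were 2.19 and 1.95 (mean 2.07 ± 0.17, SD, n = 2). With all lists shortened to the same number of peaks the mean was 2.04. With peaks of a −log10 q under 5 dropped, both vehicle peaks were lost and the region was no longer a member.

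The Pde4d region (chr13:109819615-109825110) lay 1170 kb into a gene of 1300 kb. It was covered by 5496 and 3481 bases with dDAVP and by 1800 and 1496 bases with vehicle, again with no overlap of the groups. Fold was 4.36 and 4.73 with dDAVP and 3.75 and 3.89 with vehicle, and the centred log2 ratios were 1.64 and 1.68. By the mean of both experiments, which was 1.66, the Ect2l region (1.76) and the Mad1l1 region (1.70) came before it. Pde4d held 4 more deep intragenic regions, none of them called. The nearest to a call, at chr13:109229303-109231568, had centred log2 ratios of 1.28 and 0.58, the second just under 1.5-fold.

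The other Pde4b region (chr4:102567682-102572064) held the internal start whose window is printed above. Its width rose less, from 3419 to 4383 covered bases in experiment 1 and from 2588 to 3042 in experiment 2, which was no call. Its fold was 6.33 and 6.84 with dDAVP and 4.31 and 5.88 with vehicle. In rank of fold among all regions it stood 40.9 and 25.2 percentile points higher with dDAVP. The first Pde4b region stood 43.6 and 60.9 points higher, the highest of the 2544 by the smaller of the 2 rises. No peak of any list lay on the 5′ end or the 3′ end of the Pde4b or Pde4d gene spans.

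**Figure D4:**
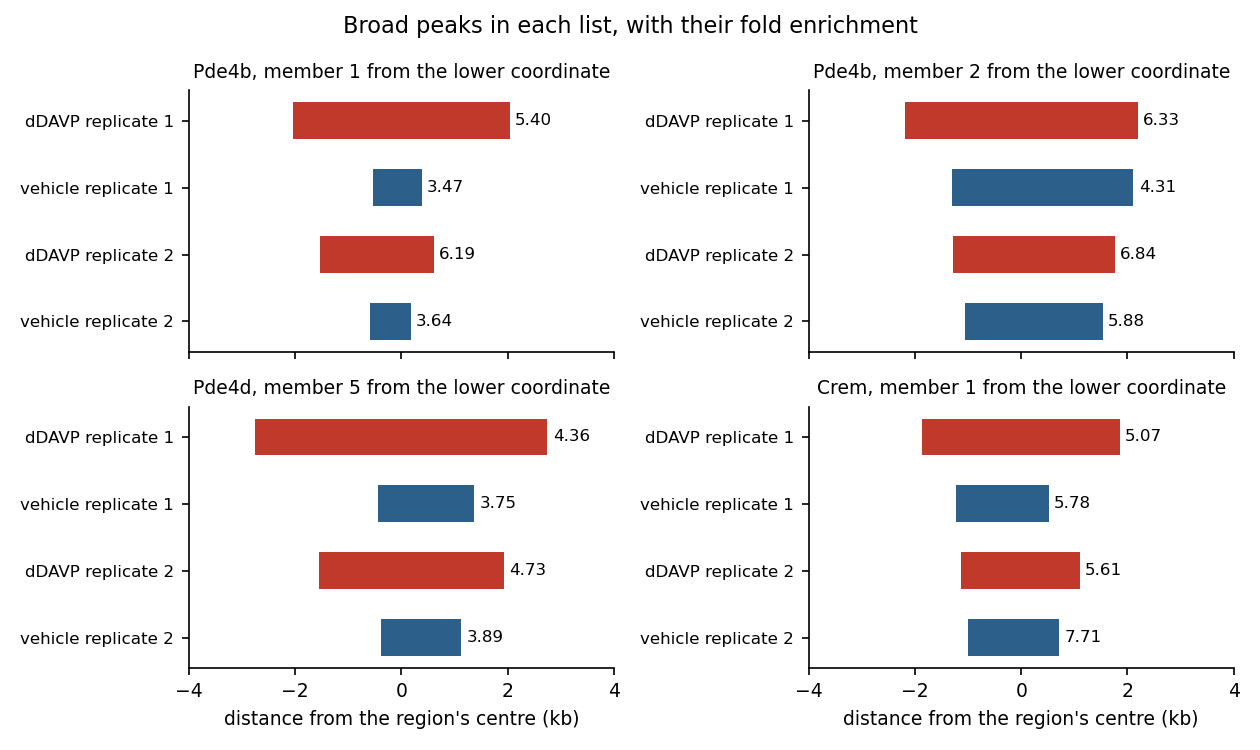
Extent of the broad peaks of each list around 4 deep intragenic regions (horizontal axis, distance from the region's centre in kb), with the deposited fold enrichment at the right of each bar; red bars are dDAVP lists and blue bars vehicle lists. In the first Pde4b region and the Pde4d region each dDAVP peak is longer and its fold higher than those of vehicle, and in the Crem region the dDAVP peaks are longer but their fold is lower.

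The cAMP list held 26 deep intragenic regions in 16 genes, of which 4 were wider and 0 narrower, against 37 and 123 of all 2544 and against 0.723% and 3.18% of all regions. This list was chosen with earlier results of these data known, and regions of 1 gene are not replicates, so its counts are descriptions. The other 33 wider regions lay in genes outside the list. Beside Pde4b and Pde4d, the wider ones lay in Crem, the cAMP-responsive element modulator, and Akap9, an anchoring protein of protein kinase A. The Crem region (chr18:3279458-3283174) was covered by 3717 and 2231 bases with dDAVP and by 1752 and 1723 with vehicle. Its fold went the other way, at 5.07 and 5.61 with dDAVP and 5.78 and 7.71 with vehicle. The Akap9 region (chr5:4023259-4025336) was covered by 2078 and 1278 bases with dDAVP and by 1091 and 916 with vehicle. In strength rank, 5 of the 26 stood at least 10 points higher in both experiments and 0 lower, against 4.42% and 4.63% of all regions: 2 in Pde4b, 2 in Pde4d and 1 in Crtc1, a CREB coactivator. The median log2 ratio of the list, not centred, was 0.16 in experiment 1 and -0.39 in experiment 2, against -0.07 and -0.71 over the 2544.

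Not every phosphodiesterase moved this way. Pde7b, which encodes another cAMP-specific enzyme, held 3 deep intragenic regions. At chr10:20618065-20623949 the covered bases were 5357 and 1172 with dDAVP and 5885 and 4540 with vehicle, and none of the 3 was called. Pde1a held 1 region, not called, and 18 other Pde genes with eligible interiors held none. The Adcy9 region, in an adenylyl cyclase gene and with an own start, had centred log2 ratios of -0.54 and -1.40 and was not called either. Both Gnas regions, which lie in the gene of the Gs alpha subunit, and both Creb5 regions were uncalled. The Creb5 region with the AP-1 motif printed above had 2299 and 1270 bases with dDAVP and 2183 and 2219 with vehicle.

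Hdac4, which encodes a class IIa histone deacetylase, was the only host with 2 wider regions. At chr1:92129384-92131753 the covered bases were 2370 and 671 with dDAVP and 974 and 324 with vehicle. At chr1:92112272-92115473 they were 3202 and 1199 with dDAVP and 1524 and 737 with vehicle. Within each experiment dDAVP was higher, but the dDAVP list of experiment 2 lay below the vehicle list of experiment 1 in both regions. The remaining Hdac4 region, with the start and the CREB half-sites printed above, had 3495 and 2352 bases with dDAVP and 3515 and 2335 with vehicle, and was not called.

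Other regions with large gains lay in Ect2l, Atp9a, Esrp1, Mad1l1 and Atxn2. Esrp1 encodes an epithelial splicing regulator, and its region (chr4:11363998-11366803) had 2806 and 1405 bases with dDAVP and 917 and 881 with vehicle. The Atp9a region, in a gene of a phospholipid flippase, had 3002 and 1537 bases with dDAVP and 1274 and 844 with vehicle. In both of these the groups did not overlap. The Mad1l1 region, in a spindle checkpoint gene, was 13590 bp wide, with 13590 and 3527 bases with dDAVP and 6698 and 963 with vehicle. Atxn2, an RNA-binding protein gene, held the only wider region among the 261 with a known own start. The centred log2 ratios of the 5 ranged from 1.00 to 2.34.

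The narrower regions spread over more hosts. Hosts with a narrower region numbered 119 and hosts with a wider one 36, and only Magi1 had both. Nsmce2, Psd3, Stard13 and Stx8 each held 2 narrower regions. The first by rank lay in Nsmce2, a SUMO ligase gene of the SMC5/6 complex (chr15:59553909-59556071), with 283 and 234 bases with dDAVP and 1569 and 1930 with vehicle. Next came Ankrd55, with 1141 and 870 bases with dDAVP and 5294 and 7228 with vehicle. Pgm2, Zfp469, Wnt9b, Prtg, Kank1, Mttp, Ksr1 and Stx8 completed the 10. Kank1 is linked to actin at cell adhesions, Mttp loads lipid onto lipoproteins and Ksr1 is a scaffold of the Ras and MAP kinase cascade. In each of the 10 both dDAVP lists lay below both vehicle lists in covered bases, not centred, which their ranking by falls in both experiments favours. With centred values, an unlike measure, and a mean fall of at least 1.5-fold, this held for 267 of the 2544 (10.5%). The share over all regions is not given here. With lists of equal length only the Stx8 region kept peaks in all 4, and with peaks of a −log10 q under 5 dropped none did. Their centred log2 ratios ranged from -1.40 to -3.07.

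Narrowing did not go with weaker peaks in every case. The Wnt9b region (chr11:103748625-103751341) held the start printed above, and Wnt9b encodes the Wnt ligand by which the ureteric bud and collecting ducts induce nephrons. It was covered by 462 and 225 bases with dDAVP and by 1688 and 1063 with vehicle, while its fold was 2.89 and 3.49 with dDAVP and 2.38 and 2.48 with vehicle. Of the 123 narrower regions, 5 also fell by at least 10 points of strength rank in both experiments and 2 rose, against 4.63% and 4.42% of all regions, so that the share that fell was near that of all regions. Of the 37 wider ones, 9 also rose in rank and 0 fell. Median fold over the narrower regions was 3.03 and 3.16 with dDAVP and 3.48 and 3.59 with vehicle, and over the uncalled regions it was 3.85 and 3.44 with dDAVP and 4.27 and 3.87 with vehicle.

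**Figure D5:**
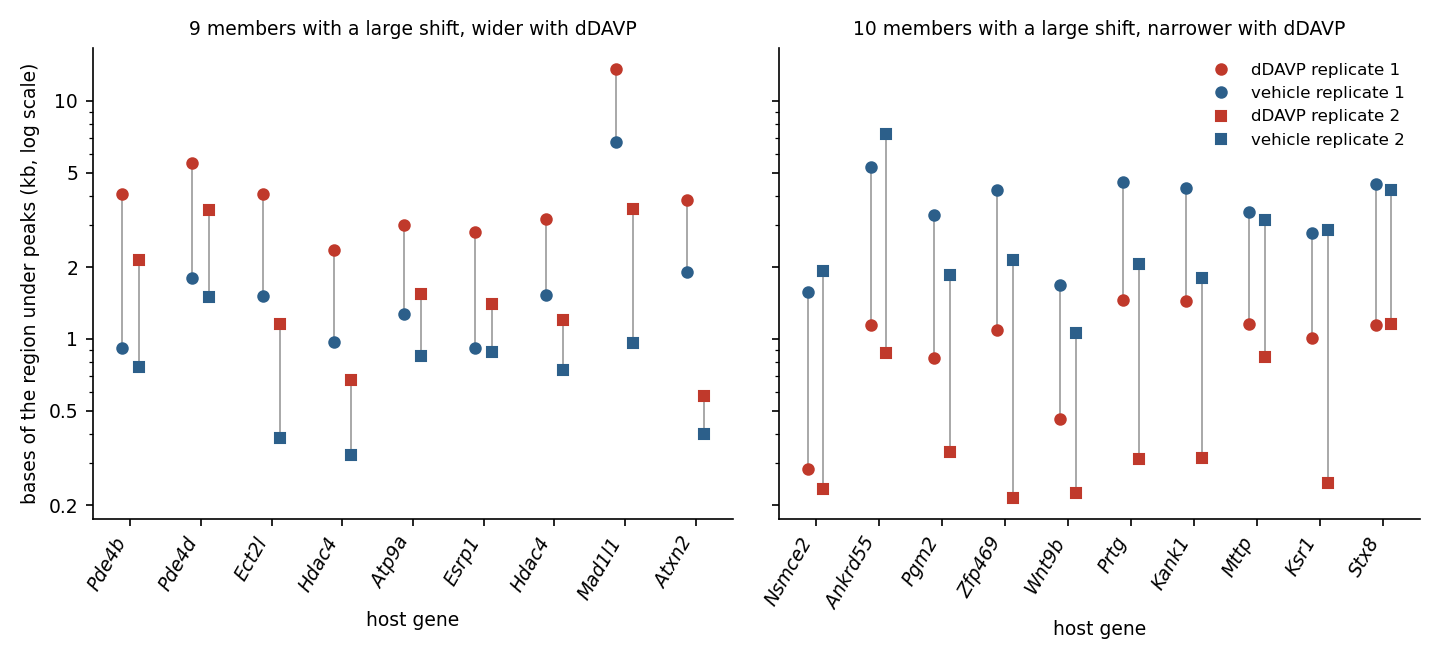
Bases of the region under peaks (vertical axis, kb, log scale) for 9 of the deep intragenic regions with the largest shift to wider and the 10 with the largest shift to narrower, by host gene; circles are experiment 1, squares experiment 2, red dDAVP, blue vehicle, and grey lines join the pair of an experiment. In each pair of the left panel dDAVP lies above vehicle, and in each pair of the right panel dDAVP is the lower one.

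Regions with an own start were called at shares near those of all regions. Of 261, 1 was wider (0.383%, against 0.723% of all regions) and 7 were narrower (2.68%, against 3.18%), in Dyrk2, Wnt9b, Eml1, Dab2, Lifr, Epb41 and Pls3. Of the 2210 with no start in the table, 36 were wider (1.63%) and 116 narrower (5.25%). Only 1688 of these have hosts in the table, so for the rest an own start is unknown. Shares for the 1688 alone are not given here. Of the 73 with a long non-coding RNA start 0 were either. Dab2 encodes an endocytic adaptor. Its region (chr15:6385399-6387944) had fold 3.16 and 2.84 with dDAVP and 3.82 and 4.48 with vehicle, and 0.563 and 0.255 times as many covered bases with dDAVP. Lifr, the receptor of leukaemia inhibitory factor, gave 0.621 and 0.379 times as many.

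Principal cell transport genes held 17 regions in 6 hosts, of which 0 were wider and 1 narrower, near the shares over all regions (0.723% and 3.18%). The narrower one lay in Scnn1b, the beta subunit of the epithelial sodium channel ENaC (chr7:121888198-121891939). It had 1163 and 894 bases with dDAVP and 2434 and 3637 with vehicle, with fold 2.76 and 2.77 against 3.78 and 3.05. In Scnn1a, the alpha subunit, the region at chr6:125329751-125333261 had 3511 and 621 bases with dDAVP and 1464 and 828 with vehicle, so the experiments went opposite ways. Nedd4l, the ubiquitin ligase that removes ENaC from the membrane, held 5 regions, none called for width. Its region starting at 65116460 on chromosome 18 rose by 19.5 and 14.3 points of rank. Kcnq1, a potassium channel gene, held 4, and its region at chr7:143310385-143315310 rose by 26.0 and 23.8 points, with fold 4.86 and 3.95 with dDAVP and 3.88 and 3.60 with vehicle. Nr3c2, which encodes the mineralocorticoid receptor, held 2 and neither was called.

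By strength rank, 142 deep intragenic regions (5.58%) stood at least 10 points higher with dDAVP in both experiments, against 4.42% of all regions, and 149 (5.86%) lower, against 4.63%. After Pde4b the highest rises lay in Arhgef3, Armc9, Uqcc1 and Synpo, and the deepest falls in Foxp1, Smarcal1, Phc2, Fhod3 and Tnrc6b. Arhgef3 encodes a guanine nucleotide exchange factor, and its region at chr14:27154718-27165461 had fold 7.04 and 4.21 with dDAVP and 4.98 and 2.73 with vehicle. Synpo encodes an actin-associated protein, with fold 4.31 and 4.89 against 3.20 and 3.48. Foxp1, a forkhead factor, gave 4.57 and 4.05 with dDAVP and 7.81 and 7.48 with vehicle.

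A total of 12 hosts held 2 or more regions of higher rank and 11 held 2 or more of lower rank. Arhgap24, a GTPase-activating protein for Rac, held 4 of higher rank among its 7 regions, the most in any host, and 1 region called wider. The strongest rise there, at chr5:102708090-102713379, was of 28.6 and 42.6 points, with fold 6.70 and 4.51 with dDAVP and 5.24 and 3.34 with vehicle. Maml3 held 3 of higher and 1 of lower rank among 10. Phldb2, Sgms1 and Shroom3, the last a gene of apical constriction, held 3 of lower rank each. These hosts were picked for their counts after the values were seen.

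The calls in the other pathway lists are counts of 0 to 3, to be read against 0.723% wider and 3.18% narrower over all regions. Nuclear receptors and chromatin genes gave 2 wider, both in Hdac4, and 0 narrower of 33. Junction and polarity genes gave 1 wider and 3 narrower of 32, and myosins and actin-binding genes 0 and 2 of 44. Integrins and basement membrane gave 0 and 2 of 17, TGF-beta, Hippo and Wnt genes 0 and 2 of 29, receptor tyrosine kinases 0 and 1 of 17, vesicle traffic 0 and 1 of 20 and transcription factors 0 and 0 of 24. No list was tested.

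Regions on either side of the limits of the rule are given for comparison. The regions just over 10 kb from a gene end included those in Zmynd11 (10009 bp) and Gnas (10010 bp), with fold between 3.04 and 5.18. Those just within it lay in Golm1 (9987 bp), Clybl (9982 bp) and Asb8 (9970 bp), with fold between 3.21 and 9.05. Just under 20 kb wide were regions in Usp6nl (19783 bp), Adgrl2 (19576 bp) and Hk1 (19358 bp), with fold between 4.07 and 7.71. Just over it were regions in Ets1 (20173 bp), Arhgef2 (20184 bp) and Ahdc1 (20211 bp), with fold between 3.89 and 8.94. Among the deep intragenic regions outside the 2544, 3017 had peaks in both lists of experiment 1 only, 330 in both vehicle lists only and 11 in both dDAVP lists only. The dDAVP replicate 2 list was the shortest, with 20122 peaks. Only 18 regions had a peak in that list alone, against 2234 in dDAVP replicate 1 alone. Shares of these patterns over all merged regions are not given here, and a link to the treatment was not tested.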

How the data were processed

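H3K27ac ChIP-seq libraries (4, with 4 inputs) were used through 4 deposited peak lists, 1 per immunoprecipitated library. Per the file headers, MACS 2.1.1.20160309 called broad peaks on each library against its own input (q limits 0.01 and 0.1), so replicates were not pooled. Alignment was with BWA to mm10, and SAMtools was used, per the submitters' processing notes. The deposited pileup is a signal in tags scaled to the smaller library. The deposited fold enrichment is a ratio to the local background and is the authors' own value per peak. In 2 columns whose names were lost, the deposited values fit the caller's −log10 p-value and −log10 q-value. The lists are attached to the input records, while their headers name the immunoprecipitated library, and peak names in both lists of experiment 2 carry another experiment number.

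Peaks were merged with Python 3.11.15, numpy 2.4.6 and pandas 2.3.3, and placed on 21631 protein-coding genes of a RefSeq table (GRCm38.p6), which gives no exons, so exon and intron are not stated. Strand and starts came from a RefSeq table of windows matched by gene identifier (17274 genes), and a start was the host's own where the symbols were the same. Covered bases, highest fold and percentile of fold were taken per region and list. The experiment number in the titles paired dDAVP with vehicle. Class medians were compared over the 4 lists by exact sign-flip tests, which cannot reach significance with 4 lists. Named regions are the 10 strongest, 10 widest, 10 narrowest, the regions of the 10 richest hosts, regions in genes of the lists (11 pathway lists and 8 of other cell types, 408 entries, all matched) and 3 regions either side of each limit; the highest and lowest ranks and a few hosts were added. Some of these regions, hosts and lists are not reported here. Regions and lists were chosen with earlier results of these data known. Alternatives covered q, list length, overlap, distance, width, fold, centring, pairing and each list left out. The calls were tried on simulated ratios with planted shifts. Their spread was set narrower than in either experiment, so the rate of false calls in these data was not estimated. Reads were not recounted, and precision is limited by 2 experiments.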

Additional observations from a re-analysis of the deposited data

Results flagged for a closer look

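Peaks also lay outside the chromosomes used, on the Y chromosome or unplaced scaffolds, and entered no comparison. In experiment 1 the dDAVP list had 25 such peaks and the vehicle list 15, and in experiment 2 the dDAVP list had 7 and the vehicle list 15. They were flagged because they are signal in data that the report did not use.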

How the results depend on the processing

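The number of deep intragenic regions was 2544. It fell to 780 when peaks with a −log10 q under 5 were dropped and to 492 where each list had to cover 50% of the region, and it was between 1828 and 3140 under the other settings on the lists and limits, among which lists of equal length gave 1940. Leaving out each list in turn gave 2621 to 4458. The wider and narrower counts, 37 and 123 at first, were 5 and 17 under that q limit, and 0 and 2 at 50% coverage, where a ratio over 2 is not possible. Without centring they were 15 and 209, at the lower fold limit 119 and 334, and at 2-fold 10 and 30. With covered bases times pileup there were 93 wider, and with lists of equal length 77 narrower. With no replicate block, that is with the experiments not paired, they were 61 and 267. Leaving out each list in turn, where a call rests on 1 experiment, gave 175 to 431 wider and 291 to 872 narrower. Of higher and lower strength rank there were 341 and 360 at 5 points, 20 and 22 at 20 points, against 142 and 149. The Pde4b region was called wider in 13 of 14 settings that gave it a value and the Pde4d region in 14 of 15, the first setting included. The exception for both was the 50% coverage, under which they are not members. Many of these settings could not have undone the calls, so the tally does not measure how firm they are. The distance, width and fold limits left both ratios unchanged, and leaving out a list reads again 1 of the 2 experiments that had passed. With the q limit the Pde4b region gave no value, and of the 20 regions with the largest shifts only that in Pde4d did. The median shift was -0.44, and it was -0.80 and -0.07 without replicate 1 and 2. Without the pairing its exact permutation p was 0.667 in place of 0.5. Among the 20 regions with the largest shifts, none changed direction under a setting that gave it a value, and many settings could not have changed it. At equal list length only 3 of the 10 widest and 1 of the 10 narrowest had peaks in all 4 lists. Peak lists hold no read counts per region, so the part of depth in the width of a peak was not tested.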
